A study of Mus musculus with 6 samples.

Results

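Nucleic acid sensors, genes that detect foreign or misplaced RNA and DNA or pass that signal on, were followed in brain cells bound by an O4 antibody, a marker of the oligodendrocyte lineage, from mice with experimental autoimmune encephalomyelitis (EAE), a model of multiple sclerosis. The 10 genes are Ddx58, Ifih1, Dhx58, Mavs, Tbk1, Tlr3, Tlr7, Tlr9, Zbp1 and Eif2ak2. They were chosen by name, as RNA and DNA sensors with their adaptors, with earlier results of these data known. They are 10 of the 55298 gene identifiers in the table. All 10 matched a single identifier and passed the filter on low values, as did 18161 genes in total. EAE was induced by immunisation with the 35 to 55 peptide of myelin oligodendrocyte glycoprotein (MOG), and control mice were given ovalbumin (OVA). All mice had the strain label c56Bl/6j, and no further treatment, allele or age is given in the sources used here. Cells were taken at maximum disease with no culture. The 3 EAE samples each pooled the RNA of 2 mice. Of the 3 OVA samples, replicate 2 pooled 2 mice and replicates 1 and 3 held 1 mouse each. The spread between samples therefore understates that between single mice where RNA was pooled.

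Cells sense viral or misplaced nucleic acid in 2 main places. In the cytosol, the RIG-I-like helicases bind RNA and signal through the mitochondrial adaptor MAVS and the kinase TBK1 to switch on type I interferon. In endosomes, the Toll-like receptors TLR3, TLR7 and TLR9 detect double-stranded RNA, single-stranded RNA and unmethylated CpG DNA. The kinase PKR, encoded by Eif2ak2, stops translation when it binds double-stranded RNA, and ZBP1 binds left-handed Z-form RNA and DNA and can start necroptosis. Several of these genes are themselves induced by interferon, and in the brain microglia and astrocytes are known sites of Toll-like receptor expression.

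Each value below is a regularised logarithm (rlog) of scaled read counts on the log2 scale, as deposited, so a difference of 1 is a 2-fold difference. The rlog draws weakly expressed genes towards their own mean and is not scaled for transcript length. Levels were therefore compared between samples of a gene and not between genes. The summed levels of marker lists add unlogged values over genes, so the highest markers weigh most in them. Depth is unknown, since the table holds no counts. Differences are EAE minus OVA, with the standard error (SE) of a limma linear model fitted across all 18161 genes, and a gene was called at a Benjamini-Hochberg adjusted p under 0.05.

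Before the results, some properties of the samples bear on them. All 9 oligodendrocyte markers were present, with a summed level of 20.20 to 20.35 in EAE and 19.82 to 20.26 in OVA, but every sample also held transcripts of microglia, astrocytes, vessels and blood cells. OVA replicate 3 stood apart, with a summed level of 6 neutrophil markers of 15.46, against 11.34 to 12.13 in EAE and 11.76 and 12.33 in the other OVA samples. Its 5 B cell markers summed to 10.60, against 9.05 to 9.24 in EAE and 9.14 and 9.15 in the other OVA samples. Transcripts of the sex chromosomes differed between the groups. Xist, the RNA that coats the inactive X in females, lay at 13.50 to 14.16 in EAE and 7.39 to 7.63 in OVA. The Y-linked Ddx3y lay at 9.44 to 10.18 in EAE and 11.29 to 11.46 in OVA, so each EAE pool held both Xist and Y-linked RNA. Sex and immunisation therefore cannot be told apart in any of the differences below.

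**Figure D1:**
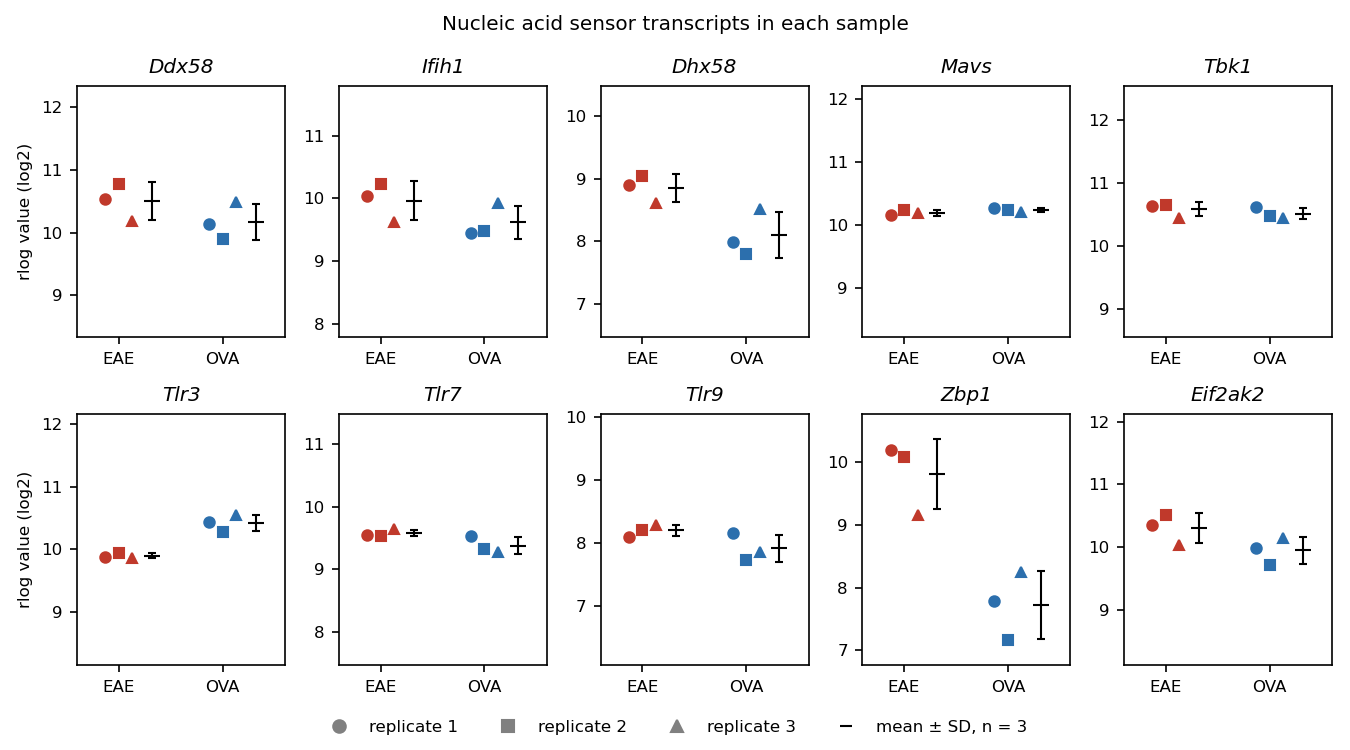
Deposited rlog values (log2) of the 10 sensor genes in each of the 3 EAE and 3 OVA samples, with symbols for replicates and the mean ± SD of each group at its right, each panel spanning 4 log2 units. Zbp1 was higher in every EAE sample, at 9.16 to 10.19 against 7.17 to 8.25 in OVA, and Tlr3 was lower in every EAE sample, at 9.87 to 9.95 against 10.28 to 10.55 in OVA.

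Of the 10 genes, Zbp1 rose and Tlr3 fell in EAE, and 8 did not pass the test. Across all tested genes, 1.72% were called higher and 0.666% lower. At an unadjusted p under 0.05 stood 3 of the 10, Zbp1, Tlr3 and Dhx58, beside 16.3% of all tested genes. Zbp1 was higher by 2.08 ± 0.34 (SE), and Tlr3 was lower at a difference of -0.52 ± 0.09. The samples of the groups did not overlap for 4 of the 10 genes, with Zbp1, Dhx58 and Tlr7 higher and Tlr3 lower in EAE. Among all tested genes, 12.1% lay wholly higher in EAE and 10.8% wholly lower. Of the 10 differences 8 lay above 0, with a median of 0.31, where that over all tested genes was 0.00 and 49.3% lay above 0. The smallest two-sided p that an exact permutation of 3 against 3 samples allows is 0.1, and Zbp1, Dhx58, Tlr3 and Tlr7 reached it, so that the calls draw on limma's variance estimate over all genes.

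Zbp1 (ENSMUSG00000027514.14, GRCm38 chromosome 2, 173206612 to 173218923) encodes the Z-form nucleic acid sensor that engages RIPK3. Its rlog values were 10.19, 10.08 and 9.16 in EAE replicates 1 to 3, and 7.79, 7.17 and 8.25 in OVA replicates 1 to 3. The 2 groups were separated by 0.917, between EAE replicate 3, the lowest EAE sample, and OVA replicate 3, the highest OVA sample. Means were 9.81 ± 0.56 in EAE and 7.73 ± 0.54 in OVA (SD, n = 3 each), a 4.21-fold rise (limma adjusted p = 0.0263). The difference was larger in size than that of 99.8% of all tested genes, with a 95% confidence interval from 1.29 to 2.86. Without OVA replicate 3 the rise was 5.03-fold (limma adjusted p = 0.00837). Zbp1 missed the threshold when EAE replicate 1 or 2 was left out (limma adjusted p = 0.107 and 0.118) and likewise for OVA replicate 1 or 2 (0.0889 and 0.0985), while the difference stayed between 1.79 and 2.40 whichever sample was left out.

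Markers of monocytes and macrophages, T cells and dendritic cells were higher on average in EAE beside Zbp1, and those of neutrophils and B cells were not. All 6 neutrophil and all 5 B cell markers lay below 0, with medians of -1.11 and -0.49, and none was called. Without OVA replicate 3 the medians were -0.14 and 0.00, and 1 neutrophil marker fell. Markers outside the immune cells lay higher too. All 9 oligodendrocyte and all 6 neuron markers lay above 0, with medians of 0.30 and 0.11, and none was called. Without OVA replicate 3 these medians were 0.13 and -0.01. The neuron markers summed to 11.40 to 11.86 in EAE and 10.63 to 11.24 in OVA. Of 10 monocyte and macrophage markers 4 rose, and the median difference of all 10 was 1.13. Their summed level was 14.97 to 15.63 in EAE and 14.29 to 15.05 in OVA, so that the groups overlapped, and none of the 10 was at 0. For this sum, as for Zbp1, the lowest EAE sample was replicate 3 and the highest OVA sample replicate 3. Most of the sum was Fn1, which differed by 0.29 ± 0.19 and was not called. The 4 that rose, Arg1, Gpnmb, F10 and Cd14, differed by 1.32 to 4.86. Of 8 T cell markers 5 rose, with a summed level of 8.95 to 9.17 in EAE and 8.22 to 8.51 in OVA. Of 7 tested dendritic cell markers 1, Itgax, rose by 1.95 and 1, Cd209a, fell at -0.67, with a median of 0.35. The 8 of the list summed to 10.89 to 11.48 in EAE and 9.71 to 10.27 in OVA. Itgax made up most of the sum in EAE, where it alone stood at 10.27 to 11.09. With 1 sample left out, the 4 monocyte markers called became 1 to 9, the highest without OVA replicate 3, and the 5 T cell markers became 1 to 7. The part of these cells in the Zbp1 difference was not tested. In these samples more cells of a type and more RNA per cell cannot be told apart.

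The 3 RIG-I-like receptors were all higher on average in EAE, and limma called none of them. Among them Dhx58 alone had an unadjusted p under 0.05. Ddx58 (ENSMUSG00000040296.15, chromosome 4, 40203773 to 40239828) encodes RIG-I, which recognises short double-stranded RNA ends. It stood at 10.53, 10.78 and 10.19 in EAE replicates 1 to 3, and at 10.13, 9.90 and 10.48 in OVA replicates 1 to 3. The groups overlapped, because OVA replicate 3 lay above EAE replicate 3. The difference was 0.33 ± 0.19 (limma adjusted p = 0.429), with a 95% confidence interval from -0.10 to 0.77.

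Ifih1 (ENSMUSG00000026896.14, chromosome 2, 62595798 to 62646255) encodes MDA5, which assembles on long double-stranded RNA. It stood at 10.04, 10.23 and 9.63 in EAE and at 9.45, 9.48 and 9.92 in OVA. It showed the same overlap, with OVA replicate 3 above EAE replicate 3, and a difference of 0.35 ± 0.18 (limma adjusted p = 0.399, 95% confidence interval from -0.08 to 0.77). Dhx58 (ENSMUSG00000017830.15, chromosome 11, 100694884 to 100704271) encodes LGP2, a relative that lacks the signalling domains of the others and modulates MDA5 and RIG-I. Its values were 8.90, 9.04 and 8.61 in EAE, against 7.99, 7.80 and 8.52 in OVA. The groups did not overlap, but EAE replicate 3 and OVA replicate 3 were only 0.092 apart. The difference of 0.75 ± 0.20, a 1.68-fold higher mean, missed the threshold (limma adjusted p = 0.112, 95% confidence interval from 0.29 to 1.21). Without OVA replicate 3 it was 0.95 ± 0.14 and passed (limma adjusted p = 0.0119). An annotated antisense gene, Dhx58os, overlaps Dhx58 over 2637 bases at a mean rlog value of 5.50. No source used here says whether reads were counted by strand.

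**Figure D2:**
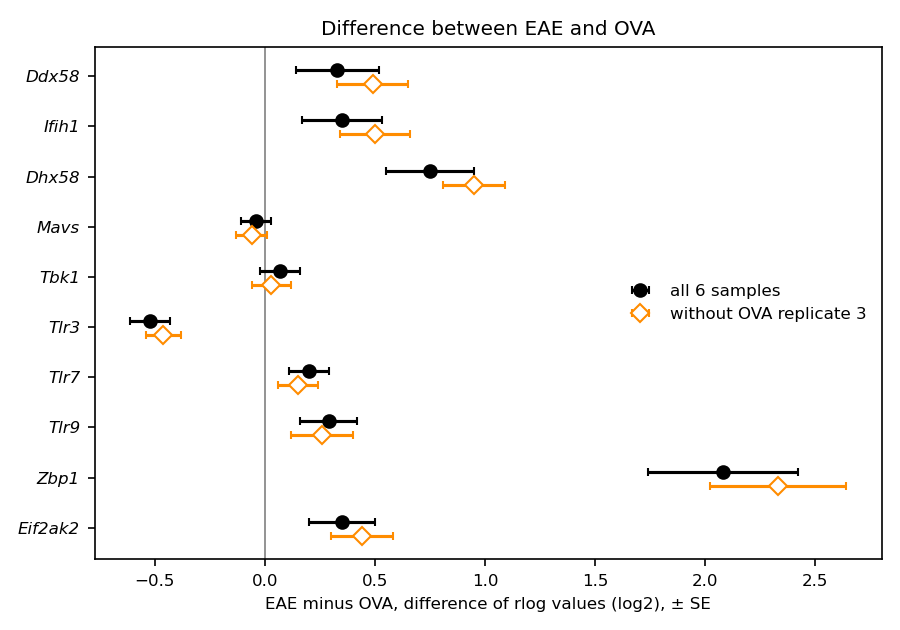
Difference between EAE and OVA (log2) of each sensor gene with its SE, from the limma fit to all 6 samples (filled circles) and to 5 samples without OVA replicate 3 (open diamonds). Zbp1 lies at 2.08 and 2.33, Dhx58 at 0.75 and 0.95 and Tlr3 at -0.52 and -0.46 in these fits, while Mavs and Tbk1 lie within 0.07 of 0 in both.

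Eif2ak2 (ENSMUSG00000024079.4, chromosome 17, 78852564 to 78882573) encodes PKR, which phosphorylates the translation factor eIF2 alpha. It stood at 10.35, 10.51 and 10.03 in EAE, and at 9.98, 9.72 and 10.15 in OVA. As for Ddx58 and Ifih1, OVA replicate 3 lay above EAE replicate 3, so that the groups overlapped. The difference was 0.35 ± 0.15 (limma adjusted p = 0.31, 95% confidence interval from -0.003 to 0.695). On the opposite strand the annotation places Gm26637, a long noncoding RNA that overlaps Eif2ak2 over 532 bases and was not analysed here.

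Within each group, the cytosolic RNA sensors, Zbp1 and Eif2ak2 shared the place of replicate 3. The order of replicates 1 and 2 differed among these genes. EAE replicate 3 was the lowest EAE sample and OVA replicate 3 the highest OVA sample for 6 of the 10 genes, namely Ddx58, Ifih1, Dhx58, Zbp1, Eif2ak2 and Tlr3. The same held for 17.1% of all tested genes. This placing was not particular to the sensors. It held for 46.6% of the 73 tested genes of the pathway lists described below, among them all 6 partners of ZBP1 in cell death. It also held for 8 of 10 monocyte and macrophage and 5 of 6 neutrophil markers, but for 0 of 8 T cell and 0 of 10 homeostatic microglia markers. Relative to OVA replicates 1 and 2, OVA replicate 3 was higher by 0.77 for Zbp1, 0.62 for Dhx58, 0.47 for Ddx58, 0.45 for Ifih1 and 0.30 for Eif2ak2. EAE replicate 3 differed from the mean of the other EAE samples by -0.97 for Zbp1, -0.51 for Ifih1, -0.47 for Ddx58, -0.40 for Eif2ak2 and -0.36 for Dhx58. For Ddx58, Ifih1 and Eif2ak2 these steps within a group were about as large as the difference between the groups or larger. Tlr3 followed this placing by 0.19 in OVA and -0.04 in EAE, although it was lower in EAE than in OVA. Among the EAE samples, replicate 3 also had the highest Xist, at 14.16 against 13.50 and 13.55. Its Ddx3y was the lowest of the EAE samples, at 9.44 against 10.18 and 10.17. The part of sex in the place of EAE replicate 3 was not tested.

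**Figure D3:**
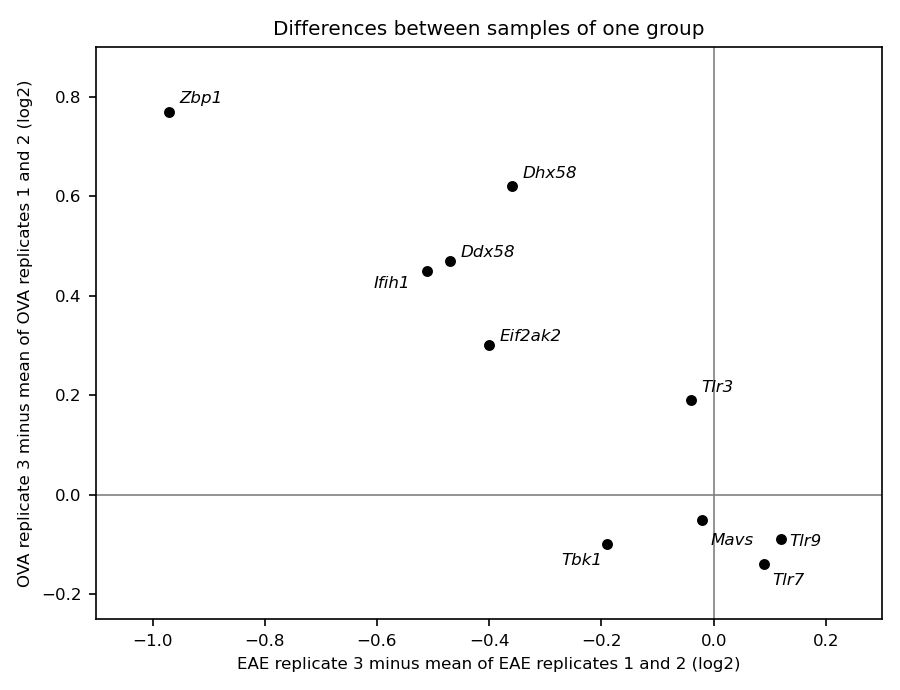
For each sensor gene, EAE replicate 3 minus the mean of EAE replicates 1 and 2 (horizontal, log2) against OVA replicate 3 minus the mean of OVA replicates 1 and 2 (vertical, log2). Zbp1, Dhx58, Ddx58, Ifih1 and Eif2ak2 lie at the upper left, from -0.97 to -0.36 horizontally and 0.30 to 0.77 vertically, whereas Mavs, Tbk1, Tlr7 and Tlr9 lie below 0 vertically.

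The promoter sequences of 7 of the 10 genes were found in RefSeq on GRCm38.p6, and those of Dhx58, Tlr7 and Zbp1 were not. The 250 bases upstream of the RefSeq start are printed for Ddx58, Ifih1 and Eif2ak2, 5′ to 3′ on the strand of the gene. These 3 double-stranded RNA sensors shared the place of replicate 3 in both groups. Tlr3 shared it too and has a window, which is not printed. They lie at chr4:40239826-40240075 for Ddx58, chr2:62646256-62646505 for Ifih1 and chr17:78882573-78882822 for Eif2ak2, each on the minus strand. Capitals mark matches to the letters searched.
Ddx58: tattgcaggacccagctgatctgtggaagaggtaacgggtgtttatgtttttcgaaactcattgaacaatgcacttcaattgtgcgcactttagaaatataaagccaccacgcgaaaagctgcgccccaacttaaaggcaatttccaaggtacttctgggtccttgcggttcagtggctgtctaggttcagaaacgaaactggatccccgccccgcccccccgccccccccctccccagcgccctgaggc
Ifih1: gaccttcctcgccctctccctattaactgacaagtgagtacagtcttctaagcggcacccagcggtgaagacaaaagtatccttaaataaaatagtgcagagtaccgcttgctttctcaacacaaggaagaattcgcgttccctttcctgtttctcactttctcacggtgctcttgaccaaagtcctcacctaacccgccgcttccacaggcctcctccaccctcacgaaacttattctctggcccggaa
Eif2ak2: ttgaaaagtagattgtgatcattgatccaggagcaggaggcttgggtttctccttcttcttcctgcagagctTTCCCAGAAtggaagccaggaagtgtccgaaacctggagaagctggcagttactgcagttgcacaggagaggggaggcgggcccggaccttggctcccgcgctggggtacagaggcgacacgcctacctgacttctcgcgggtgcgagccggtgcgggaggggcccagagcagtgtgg

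Both strands of the 7 windows were searched for TTCNNNGAA, the palindrome bound by STAT dimers. These letters stood in 1 of the 7, that of Eif2ak2, at bases -178 to -170 from the RefSeq start, and in 7.02% of all 32851 promoter windows of 250 bases. No match says only that these letters are not in this window. A core of the interferon-stimulated response element was also searched in these windows, and that search is not reported here.

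Among the 10 genes, the adaptor Mavs and the kinase Tbk1 had the smallest differences. Mavs (ENSMUSG00000037523.13, chromosome 2, 131234063 to 131248025), the mitochondrial adaptor, stood at 10.15, 10.24 and 10.18 in EAE, and at 10.26, 10.24 and 10.20 in OVA. Tbk1 (ENSMUSG00000020115.3, chromosome 10, 121546455 to 121586787), the kinase that activates IRF3, stood at 10.64, 10.65 and 10.45 in EAE, and at 10.62, 10.48 and 10.45 in OVA. The groups overlapped for both. Their differences were -0.04 ± 0.07 for Mavs and 0.07 ± 0.09 for Tbk1 (limma adjusted p = 0.792 and 0.749). The 95% confidence intervals ran from -0.20 to 0.11 for Mavs and from -0.13 to 0.27 for Tbk1, which leave room for small differences in either direction.

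The 3 endosomal receptors did not move together. Tlr3 (ENSMUSG00000031639.12, chromosome 8, 45395665 to 45411080), the receptor for double-stranded RNA, was the only one of the 10 genes called lower. Its values were 9.88, 9.95 and 9.87 in EAE replicates 1 to 3, and 10.44, 10.28 and 10.55 in OVA replicates 1 to 3. All EAE samples lay below all OVA samples, with a gap of 0.329. An annotated antisense gene, Gm45542, overlaps Tlr3 over 698 bases at a mean rlog value of 1.74. The means were 9.90 ± 0.04 in EAE and 10.42 ± 0.13 in OVA (SD, n = 3 each), a 1.43-fold fall (limma adjusted p = 0.0286, 95% confidence interval of the difference from -0.72 to -0.32). The difference stayed between -0.59 and -0.46 whichever sample was left out. It passed the threshold without OVA replicate 3 (limma adjusted p = 0.0186), and missed it without EAE replicates 1, 2 or 3 (0.129, 0.118 and 0.0868) or OVA replicates 1 or 2 (0.0786 and 0.0663).

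Markers of several cell types were lower in EAE beside Tlr3. Of 8 astrocyte markers 5 fell and 1, Gfap, rose, with a median of -0.73. Their summed level was 15.92 to 16.23 in EAE and 16.70 to 17.03 in OVA. Of 10 homeostatic microglia markers 2 fell and all 10 lay below 0, with a summed level of 15.15 to 15.47 in EAE and 15.55 to 15.72 in OVA. The highest marker in this sum was Sparc, at 13.87 to 13.99 in EAE and 14.16 to 14.26 in OVA, which was not called. The 5 oligodendrocyte precursor markers did not move together, with a median of -0.0. Of them 2, Ptprz1 and Tmem100, fell, and 2, Pdgfra and C1ql1, lay above 0, at 0.38 and 0.40. The list summed to 13.26 to 13.41 in EAE and 13.60 to 13.90 in OVA. Most of that sum was Ptprz1, at 12.42 to 12.67 in EAE and 13.04 to 13.44 in OVA. When any sample but OVA replicate 3 was left out, 0 precursor markers fell. All 6 endothelial and all 5 pericyte and smooth muscle markers lay below 0, with medians of -0.51 and -0.43, and none was called. Their summed levels overlapped between the groups, and both were highest in OVA replicate 3, as Tlr3 was. None of these markers was at 0. With 1 sample left out, 0 to 5 astrocyte markers and 0 to 4 microglia markers fell, with 0 without EAE replicate 2 in both lists. The part of these cells in the Tlr3 difference was not tested.

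Tlr7 and Tlr9 were slightly higher on average in EAE and were not called. Tlr7 (ENSMUSG00000044583.13, chromosome X, 167304929 to 167330558), the receptor for single-stranded RNA, stood at 9.55, 9.54 and 9.64 in EAE, and at 9.54, 9.32 and 9.28 in OVA. The groups did not overlap by only 0.004, the gap between EAE replicate 2 and OVA replicate 1. The difference was 0.20 ± 0.09 (limma adjusted p = 0.348, 95% confidence interval from -0.02 to 0.41). Tlr7 is the only one of the 10 genes on the X chromosome, and Xist differed by 6.19 between the groups. Tlr9 (ENSMUSG00000045322.10, chromosome 9, 106222598 to 106226883), the receptor for CpG DNA, stood at 8.10, 8.21 and 8.28 in EAE, and at 8.16, 7.73 and 7.85 in OVA. OVA replicate 1 lay above EAE replicate 1, and the difference was 0.29 ± 0.13 (limma adjusted p = 0.334, 95% confidence interval from -0.02 to 0.59). In OVA replicate 3, where the B cell markers were high, Tlr7 and Tlr9 were not at their highest among the OVA samples, and the part of B cells in either level was not tested.

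**Figure D4:**
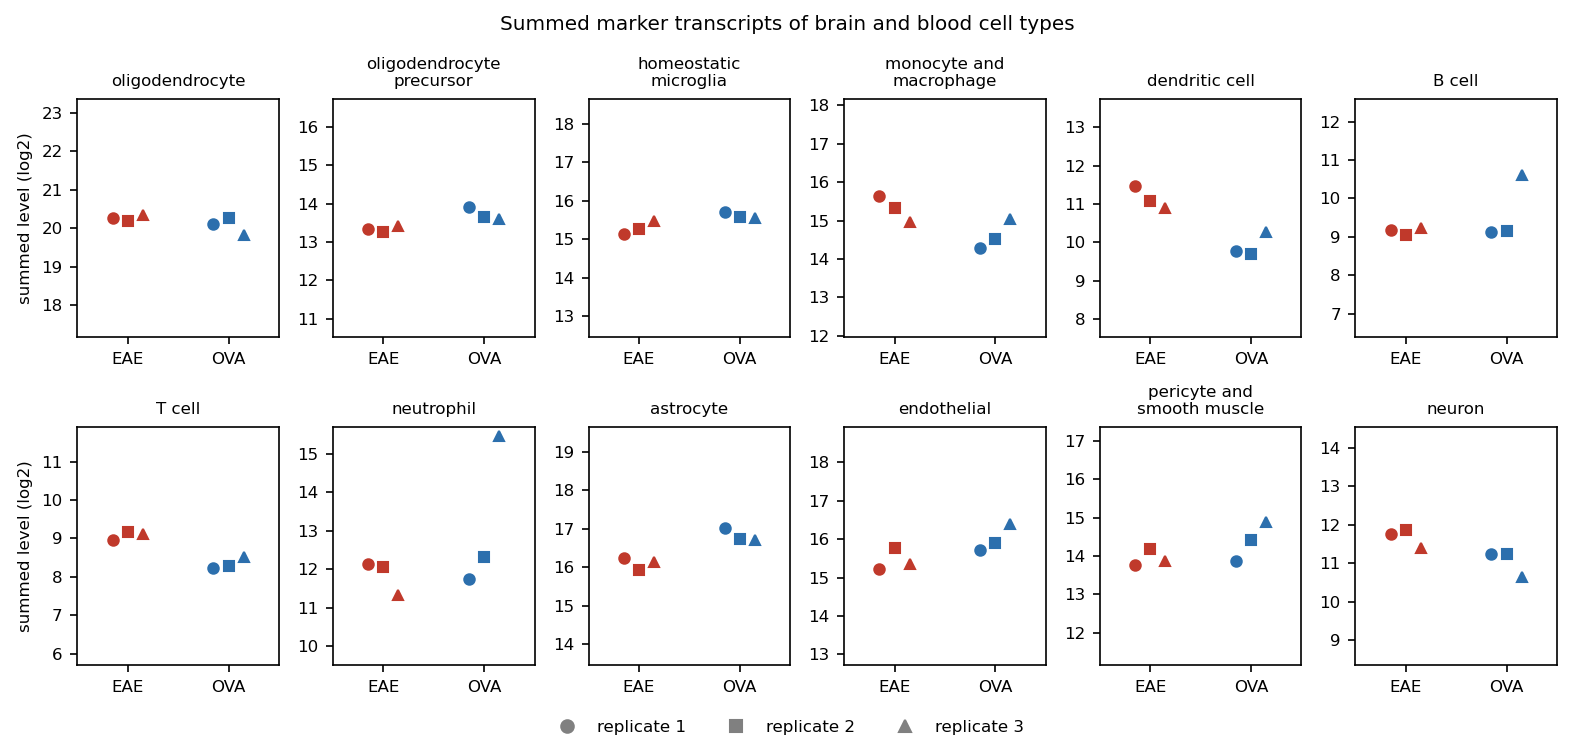
Summed level (log2 of the sum of unlogged rlog values) of the 12 lists of cell type markers in each EAE and OVA sample, each panel of equal height in log2 units. Monocyte, dendritic, T cell, neuron and oligodendrocyte markers summed higher in EAE on average, and astrocyte and homeostatic microglia markers lower. OVA replicate 3 stands out for neutrophil markers at 15.46 and B cell markers at 10.60.

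Other genes of these pathways were taken from 8 lists that hold 80 genes, of which 73 were tested. The lists were chosen with earlier results of these data known, so the counts below are not independent of that choice. Of the 73, 4 rose, 0 fell, and 59 lay above 0, with a median of 0.13. Over all 18161 tested genes 1.72% rose, 0.666% fell and 49.3% lay above 0. At an unadjusted p under 0.05, 24 of the 73 were higher and 0 lower, beside 1665 higher and 1298 lower of all 18161. The 4 called genes were Ikbke, Irf5, Oasl2 and Oas1g. When a sample was left out, that count of 4 became 1 for EAE replicate 1, 0 for EAE replicate 2 and 9 for EAE replicate 3. It became 1 for OVA replicate 1, 0 for OVA replicate 2 and 19 for OVA replicate 3.

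The 2′-5′-oligoadenylate synthetases, interferon-induced enzymes that sense double-stranded RNA and activate RNase L, had the highest median of the 8 lists. All 9 genes of that system lay above 0, from 0.23 to 1.57 with a median of 0.94, and 2 rose. Oasl2 stood at 11.97, 12.08 and 11.19 in EAE and at 10.32, 10.22 and 10.82 in OVA, a 2.45-fold rise (limma adjusted p = 0.0461). Oas1g, at 6.79, 6.74 and 6.27 in EAE and at 5.68, 5.70 and 5.61 in OVA, rose 1.91-fold (limma adjusted p = 0.0244). The Oas1 genes are close paralogs, so reads may be shared between them. EAE replicate 3 was the lowest EAE sample and OVA replicate 3 the highest OVA sample for 7 of the 9, as for the helicases. Of the 9, 8 passed without OVA replicate 3 and 6 without EAE replicate 3, and 0 did when any of the other 4 samples was left out.

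Of 15 regulators and signalling genes of the RIG-I-like receptors, 1 rose and 11 lay above 0, with a median of 0.12. It was Ikbke, which encodes IKK epsilon, the inducible relative of TBK1. Ikbke stood at 10.62, 10.30 and 9.96 in EAE and at 9.03, 8.96 and 8.93 in OVA. It rose by 1.32 ± 0.15, or 2.50-fold (limma adjusted p = 0.0112), beside the 0.07 ± 0.09 of Tbk1. With EAE replicate 2 or OVA replicate 2 left out, Ikbke no longer passed (limma adjusted p = 0.0617 and 0.0663), and 4 genes of the list passed with OVA replicate 3 left out. Of 14 genes that traffic endosomal receptors or signal from them, 1 rose and 13 lay above 0, with a median of 0.24. It was Irf5, a transcription factor downstream of TLR7 and TLR9, at 10.26, 10.03 and 10.03 in EAE and 9.57, 9.36 and 9.65 in OVA, a 1.49-fold rise (limma adjusted p = 0.0397). Irf5 lost its call whenever a sample other than OVA replicate 3 was left out, with a limma adjusted p of at most 0.158, and 3 genes of the list passed without OVA replicate 3.

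**Figure D5:**
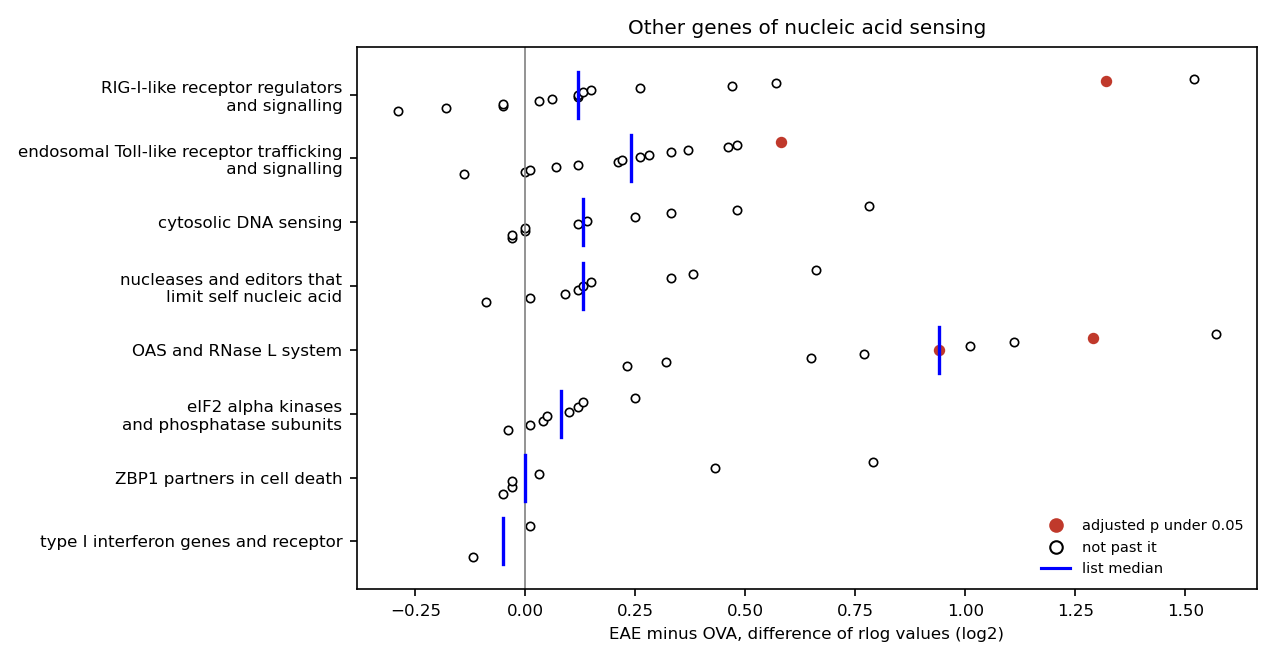
Difference between EAE and OVA (log2) of the tested genes of 8 lists related to nucleic acid sensing, with filled points past the adjusted p threshold of 0.05 and a bar at the median of each list. The genes of the OAS and RNase L system have the highest median, at 0.94, and the other medians lie from -0.05 to 0.24.

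In the remaining lists limma called 0 genes. Without OVA replicate 3 it called 2 genes of cytosolic DNA sensing, 1 nuclease or editor and 1 partner of ZBP1. Of all tested genes, 16.3% were at an unadjusted p under 0.05 in either direction, and the counts below stand beside that share. Of 10 cytosolic DNA sensing genes 2 were at an unadjusted p under 0.05, namely the inflammasome adaptor Pycard at 0.78 ± 0.16 and Casp1 at 0.48 ± 0.14 (limma adjusted p = 0.0538 and 0.142). Of 9 tested nucleases and editors that limit the cell's own nucleic acid 3 were, among them Dnase2a at 0.38 ± 0.10 and the dNTP hydrolase Samhd1 at 0.66 ± 0.18 (limma adjusted p = 0.0953 and 0.124). Trex1, a cytosolic DNA exonuclease of that list, was listed at 0 in every sample. Of 6 partners of ZBP1 in cell death 1 was, the necroptosis effector Mlkl at 0.79 ± 0.22 (limma adjusted p = 0.127), and the kinase Ripk3 differed by 0.43 ± 0.25 (limma adjusted p = 0.45). These 6 partners did not move together, since 3 lay above 0 and 3 below, with a median of 0.0. None of 8 genes around eIF2 alpha phosphorylation was at an unadjusted p under 0.05, with Ddit3 at 0.25 ± 0.11 and the phosphatase subunit Ppp1r15b at 0.13 ± 0.08 (limma adjusted p = 0.333 and 0.463).

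Of the genes of type I interferon itself, 5 were looked up and none passed the filter. Ifna2, Ifna4, Ifna5 and Ifne were listed at 0 in every sample, as Trex1 was, and the table has no counts to show what a listed 0 stands for. Ifnb1 lay between 0.44 and 0.51 in EAE and at 0.44 in OVA, under the filter, and was not tested. The interferon receptor chains were present in every sample, with Ifnar1 at 11.55 to 11.82 in EAE and 11.57 to 12.11 in OVA, and differed by -0.12 ± 0.15 for Ifnar1 and 0.01 ± 0.11 for Ifnar2 (limma adjusted p = 0.729 and 0.968).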

How the data were processed

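RNA was sequenced from TruSeq Stranded mRNA libraries, per the labels' protocols. Tools named by the submitters' processing notes, with no roles, are STAR 2.6.1c, Subread 1.6.1, cutadapt 1.18, bcl2fastq 2.17 and DESeq2 1.24.0, on GRCm38. The deposited table holds the authors' log2 values per gene and sample, which its name and values mark as the rlog of scaled counts. It has no counts, so depth and counting error cannot be stated. Symbols matched 55117 of 55298 identifiers, and positions are from GENCODE M21, 1-based. Genes with a mean under 3 were left out. Groups were taken from the treatment label. EAE was compared with OVA in limma 3.58.1 under R 4.3.3, two-sided, with trended empirical Bayes variances and Benjamini-Hochberg adjustment over all 18161 tested genes. Replicates were numbered in deposition order and pair nothing. The samples come from separate mice, in part pooled.

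All 10 sensor genes are named. From each of 8 pathway lists the text names up to 3 called genes by size of difference, plus 1 called in the other direction, and with none called the 2 of lowest p. The genes and lists were chosen with earlier results of these data known. Trex1, the interferon genes and the single cell type markers, such as Gfap, Itgax and Fn1, were named after their values were seen. Alternatives were other filters, limma without the trend, robust moderation, sample weights, other scalings and leaving out each sample.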

Additional observations from a re-analysis of the deposited data

How the results depend on the processing

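All 10 sensor genes kept the direction of their difference in the 8 other settings and the 6 fits without 1 sample. Zbp1 and Tlr3 stayed past the threshold in all 8 other settings. With array quality weights, 7 sensor genes were higher and 1 lower, adding Ddx58, Ifih1, Dhx58, Tlr7, Tlr9 and Eif2ak2 to Zbp1. The weights, from 0.22 for OVA replicate 3 to 8.85 for OVA replicate 2, came from a fit that stopped before its tolerance, and 2858 genes were then higher and 2233 lower, with 37 pathway genes higher and 1 lower. The count of pathway genes higher was 2 with no filter on low values, 10 with weights by the number of mice, and 7 with a common median or with quantile normalization. The cause was not tested. With 1 sample left out, genes higher in EAE numbered 24 to 850 and genes lower 1 to 346, sensor genes higher 0 to 2 and lower 0 to 1, and pathway genes higher 0 to 19. No paired analysis was possible because the labels give no shared replicate numbers. The depth is unknown, so its limit on weakly expressed genes could not be stated.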
